A study of Mus musculus with 20 samples.

Results

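The nuclear genes for the mitochondrial respiratory chain were followed in whole lung of 2 Arg2 genotypes of mice kept in room air or in hypoxia. The genes were taken by symbol: every counted gene whose symbol starts with Nduf, Uqcr or Atp5, except Ndufa4l2, together with Sdha, Sdhb, Sdhc and Sdhd. This gave 73 symbols, none of them marked as a pseudogene by the suffix -ps. Ndufs5 and Atp5g2 had a mean under 1 CPM (reads scaled to library size) over all samples and were dropped, which left 71 members of 24062 counted genes. Of these, 35 encode subunits of complex I, 4 of complex II, 8 of complex III, 1 of complex IV (Ndufa4) and 14 of complex V. The other 9 are taken in by their symbols and are not subunits: 7 assembly factors of complex I (Ndufaf1 to Ndufaf7) and the genes Atp5s and Atp5sl. Atp5sl, now named Dmac2, is not counted with the assembly factors below, which are the 7 Ndufaf genes only. Expression was measured by sequencing of ribosome-depleted total RNA from frozen whole lung. The mice, of both sexes and 8 to 10 weeks old, had the strain label C57/129 and were either Arg2+/+ (wild type) or Arg2-/- (knockout, lacking arginase 2, a mitochondrial enzyme that splits arginine into ornithine and urea). They spent 28 days in 10% O2 (hypoxia) or 21% O2 (room air), which gave 4 groups of 4 samples from 20 libraries. The labels name no promoter or cell type to which the deletion is limited and do not say whether each sample is 1 animal, so the p-values below measure spread among samples that may or may not be separate animals.

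As background, the respiratory chain sits in the inner mitochondrial membrane. Complex I takes electrons from NADH and complex II takes them from succinate, and both pass them to ubiquinone. Complex III hands them to cytochrome c, and complex IV passes them on to oxygen. Complexes I, III and IV pump protons, and complex V, the ATP synthase, uses the proton gradient to make ATP. Complexes I, III, IV and V each combine subunits from the nucleus with subunits from mitochondrial DNA, whereas all subunits of complex II are nuclear. Genes of the mitochondrial DNA were not analysed here. In hypoxia, cells are known to alter respiration through the transcription factor HIF1, which induces among others Pdk1, a kinase that holds pyruvate back from the citric acid cycle, and Ndufa4l2, a relative of Ndufa4.

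Many respiratory chain genes have processed copies elsewhere in the genome, and the copies bear on how reads are counted. Among the 71 members, 16 had at least 1 further locus with 95% identity or more over at least 80% of the coding sequence in the mouse genome (GRCm38). Atp5l had 8 such loci, and Atp5h and Uqcrb had 3 each. Uqcrb, which encodes a small ubiquinone-binding subunit of complex III and which carries one of the larger differences below, lies at chr13:66900617-66905378 on the minus strand. Its first 90 coding bases are shown with those of its copies, all of them annotated as processed pseudogenes, with bases that differ from Uqcrb in capitals.
Uqcrb: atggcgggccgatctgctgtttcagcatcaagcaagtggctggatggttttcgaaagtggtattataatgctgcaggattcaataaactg
Gm2962 (chromosome 1): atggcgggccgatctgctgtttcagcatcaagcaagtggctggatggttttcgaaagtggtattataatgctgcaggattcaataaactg
Gm5457 (chromosome 14): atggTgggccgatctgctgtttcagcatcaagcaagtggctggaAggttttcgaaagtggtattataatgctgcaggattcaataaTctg
Gm16089 (chromosome 5): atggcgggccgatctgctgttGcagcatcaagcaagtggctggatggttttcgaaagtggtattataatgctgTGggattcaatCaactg
Over this stretch Gm2962 is identical to Uqcrb. Over the whole coding sequence of 333 bases, Gm2962 differed from Uqcrb at 6 positions, Gm16089 at 7 and Gm5457 at 8. Reads from Uqcrb and from these copies cannot be fully told apart, so values of Uqcrb are uncertain in that respect.

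The dropped Ndufs5, an accessory subunit of complex I, has 1 such copy and is shown beside it because nearly all counts stood at the copy. Group means of Ndufs5 lay between 0 and 0.034 CPM. BC002163, the copy, a processed pseudogene on chromosome 16, was counted at means of 13.3 ± 1.53, 14.3 ± 2.17, 13.8 ± 2.26 and 14.3 ± 1.42 CPM (SD, n = 4 each) in wild type in room air, wild type in hypoxia, knockout in room air and knockout in hypoxia. Over 318 coding bases the pair differs at 2 positions. Both fall in the first 120 bases and are shown in capitals.
Ndufs5: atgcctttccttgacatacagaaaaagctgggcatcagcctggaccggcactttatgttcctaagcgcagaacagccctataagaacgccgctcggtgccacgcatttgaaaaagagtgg
BC002163: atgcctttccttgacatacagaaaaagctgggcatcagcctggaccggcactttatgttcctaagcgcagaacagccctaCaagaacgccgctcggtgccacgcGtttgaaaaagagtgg
Atp5g2, one of the genes for the c ring of the ATP synthase, had 2 copies at 100% identity and group means of 0.514 to 0.901 CPM.

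Promoter windows were examined because members are often described as sharing binding sites for the factors NRF1, GABP and YY1. RefSeq's annotation of GRCm38.p6 gave windows of 300 bases, from 250 before to 50 after a gene's start, for 59 of the 71 members (65 windows). The NRF1 letters, GCGCA followed by any base N and then GCGC, read on both strands, occurred in 26.2% of these windows and in 4.6% of all 32851 windows. The GABP letters CCGGAAG occurred in 21.5% against 8.86%, and the YY1 letters AAGATGGCG in 13.8% against 1.4%. The core of the HIF1 element, ACGTG or GCGTG, occurred in 67.7% against 43.8%. The windows of all genes were not matched to those of the members for base content or expression. Whether the higher shares are particular to the members was not tested. An NRF1 match whose N is C also holds GCGTG on the other strand, so these counts overlap. Windows are printed for 4 genes called below and for Sdha, which holds 3 NRF1 matches, each along the gene's own strand with NRF1 letters in capitals. A match is a string of letters and not a measured binding site.
Ndufa5, chr6:24527641-24527940, minus strand: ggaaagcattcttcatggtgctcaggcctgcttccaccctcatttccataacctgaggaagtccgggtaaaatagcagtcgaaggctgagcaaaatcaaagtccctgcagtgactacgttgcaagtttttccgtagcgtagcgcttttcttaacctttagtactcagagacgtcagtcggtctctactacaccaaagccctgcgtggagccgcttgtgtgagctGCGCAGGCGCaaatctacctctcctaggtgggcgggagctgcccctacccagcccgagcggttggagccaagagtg
Ndufaf4, chr4:24897833-24898132, plus strand: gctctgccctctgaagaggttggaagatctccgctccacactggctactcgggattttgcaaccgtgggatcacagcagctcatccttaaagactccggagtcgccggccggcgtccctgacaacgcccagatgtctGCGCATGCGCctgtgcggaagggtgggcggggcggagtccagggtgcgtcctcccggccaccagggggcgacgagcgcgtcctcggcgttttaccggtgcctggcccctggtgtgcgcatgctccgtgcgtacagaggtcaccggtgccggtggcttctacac
Ndufaf5, chr2:140170396-140170695, plus strand: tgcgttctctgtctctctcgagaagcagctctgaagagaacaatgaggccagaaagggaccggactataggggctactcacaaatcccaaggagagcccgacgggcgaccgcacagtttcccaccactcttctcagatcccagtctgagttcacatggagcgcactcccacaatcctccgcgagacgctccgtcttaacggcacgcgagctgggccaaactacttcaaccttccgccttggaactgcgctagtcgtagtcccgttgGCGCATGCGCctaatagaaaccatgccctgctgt
Sdha, chr13:74350191-74350490, minus strand: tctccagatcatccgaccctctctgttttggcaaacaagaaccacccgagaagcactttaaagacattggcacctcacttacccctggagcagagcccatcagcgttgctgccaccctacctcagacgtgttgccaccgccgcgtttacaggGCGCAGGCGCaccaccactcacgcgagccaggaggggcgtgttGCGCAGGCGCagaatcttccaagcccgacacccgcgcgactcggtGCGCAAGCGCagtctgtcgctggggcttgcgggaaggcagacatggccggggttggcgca
Ndufc2, chr7:97399753-97400052, plus strand: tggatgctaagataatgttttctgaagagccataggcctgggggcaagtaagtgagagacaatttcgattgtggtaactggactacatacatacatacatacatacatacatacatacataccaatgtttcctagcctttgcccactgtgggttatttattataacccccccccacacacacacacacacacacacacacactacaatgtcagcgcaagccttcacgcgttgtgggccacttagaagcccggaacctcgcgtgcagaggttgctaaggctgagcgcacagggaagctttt
Ndufa5, Ndufaf4 and Ndufaf5 each have 1 NRF1 match in these windows, and the Ndufc2 window has none. Among all 59 members with a window, 16 (27.1%) held an NRF1 match. Windows of the other called members are not printed, so the printed ones do not stand for the called genes as a set.

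Per kilobase of transcript, the members covered more than 2 orders of magnitude in the lung. The highest level was that of Atp5b, the catalytic beta subunit of the ATP synthase head, at 300 CPM per kb averaged over all samples. Atp5e (202 CPM per kb), Atp5a1 (199 CPM per kb), Ndufa4 (168 CPM per kb) and Uqcrh (168 CPM per kb) followed. At the other end of the subunits stood Ndufab1, the mitochondrial acyl carrier protein, at 2.46 CPM per kb, then Ndufb4 at 3.75 and Atp5l at 4.15 CPM per kb. These 3 low subunits have copies at 99.8% to 100% identity, and the part of the copies in their low counts was not tested. The median level was 58.7 CPM per kb over the 55 members without a copy. It was 31.7 over the 13 with 1 or 2 copies and 46.1 over the 3 with 3 or more. The 7 assembly factors ran from 3.78 CPM per kb (Ndufaf6) to 12.6 CPM per kb (Ndufaf3), below all but 4 of the 62 subunits. The median coefficient of variation within groups ran from 3.44% for Atp5b to 40.6% for Atp5l. The 4 group means lay close together for most members, as the plot of levels per kilobase shows.

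**Figure D1:**
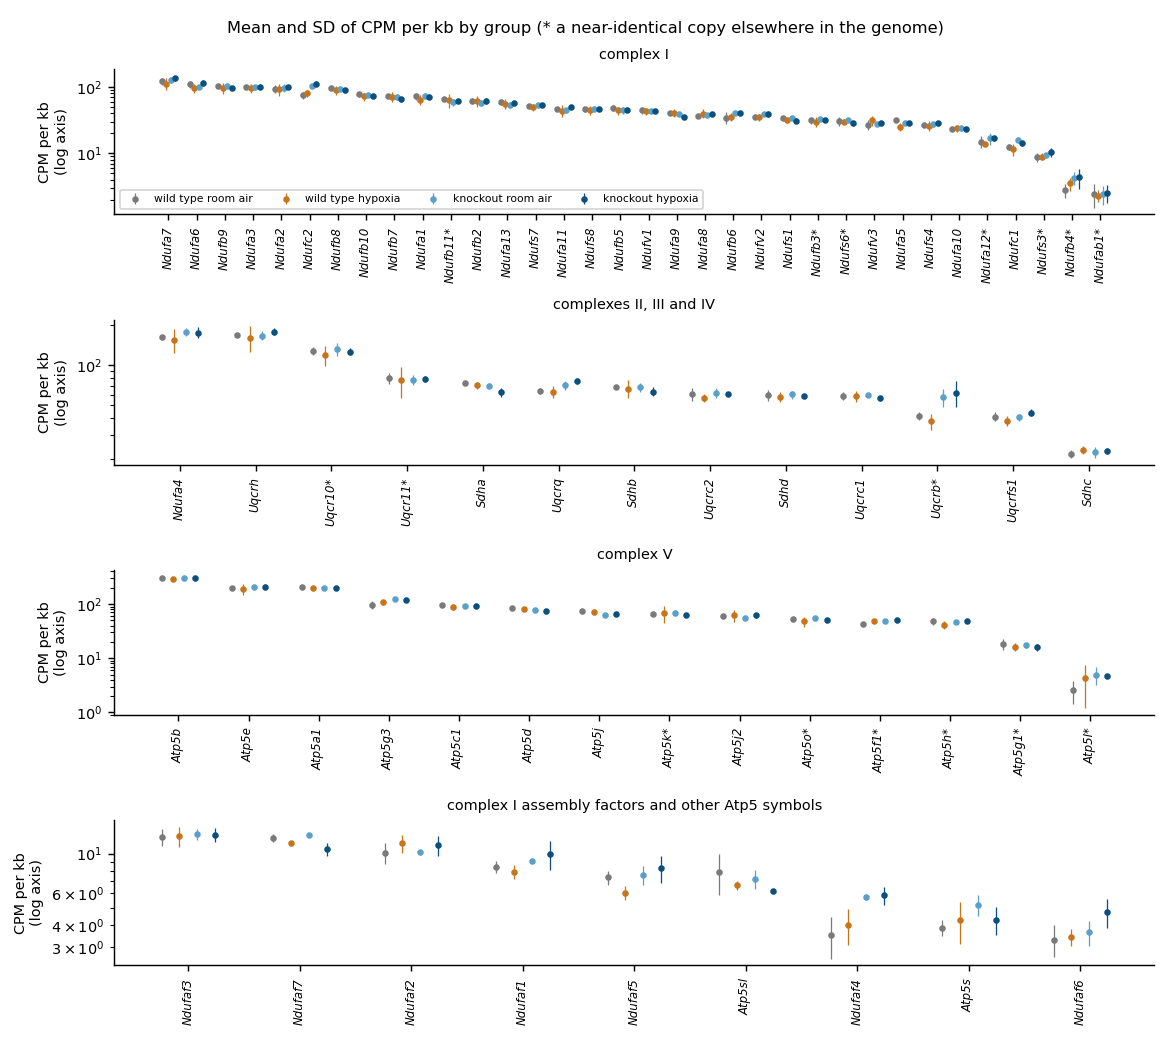
Mean and SD (n = 4) of CPM per kilobase of transcript for each member but 1 in each of the 4 groups, on log axes, in panels by complex; an asterisk marks members with a near-identical copy. Group means lie close together for most genes, with Atp5b highest at about 300 CPM per kb, and the lowest subunits, Ndufab1, Ndufb4 and Atp5l, carry the mark of a copy.

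The libraries differed in depth and in tissue makeup. Wild type room air 3 had the fewest reads in genes (9531270) and knockout room air 3 the most (63331530), and the share in genes, of reads counted to a gene or to no feature, was lowest in the former (25.4%) and at most 64.2% elsewhere. At the lowest depth 3 reads equal 0.315 CPM, under the lowest group mean of any member (1.43 CPM, Atp5l in wild type in room air). Lung markers were high throughout: 5 markers of alveolar type II cells summed to 16280 to 22680 CPM. Markers of other organs stood out in some samples. Skeletal muscle markers summed to 1715 CPM in wild type room air 1, to 63.8 CPM in wild type room air 2 and to 35.9 CPM or less elsewhere. Exocrine pancreas markers summed to 2227, 167 and 25.6 CPM in knockout hypoxia 1, 2 and 3. Thymocyte markers summed to 98.5 and 84.6 CPM in knockout room air 3 and 4, with a median of 18.1 CPM over all samples. Heart muscle markers were highest in knockout room air 3, at 1120 CPM with a median of 421.8 CPM. Arg2 itself was read in the knockout, at 5.62 ± 1.47 CPM in room air and 4.28 ± 0.912 CPM in hypoxia, against 9.19 ± 1.92 and 9.30 ± 2.25 CPM in wild type (SD, n = 4). It was lower in the knockout in hypoxia (log2 fold change -1.13, SE 0.22, edgeR adjusted p = 0.00191), and in room air the log2 fold change was -0.70 (adjusted p = 0.0842). The deleted part of the gene is not in the labels, so counts over the whole gene check the labels only in part.

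Wild type hypoxia 4 stood apart in the respiratory chain itself. It held the lowest value of all 16 samples for 43 of the 71 members, and 68 lay below their own mean. Its median deviation from the members' means was -0.29 on the log2 scale, against -0.07 to 0.11 in the other 15 samples, while over all genes tested its median deviation was 0.00. Wild type hypoxia 2 was at the opposite end, with the highest value for 23 members. The summed level of 16 complex IV subunits was 682 CPM in wild type hypoxia 4 and at least 789.8 CPM in every other sample. Genes of the cytosolic ribosome (94 genes) summed to 3762 CPM there and to at least 4658 CPM elsewhere, and those of the mitochondrial ribosome (77 genes) to 1261 CPM against at least 1386 CPM. It held 42865169 reads in genes, so it was not shallow. Counts and medians of the comparisons that include this sample are given with and without it.

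**Figure D2:**
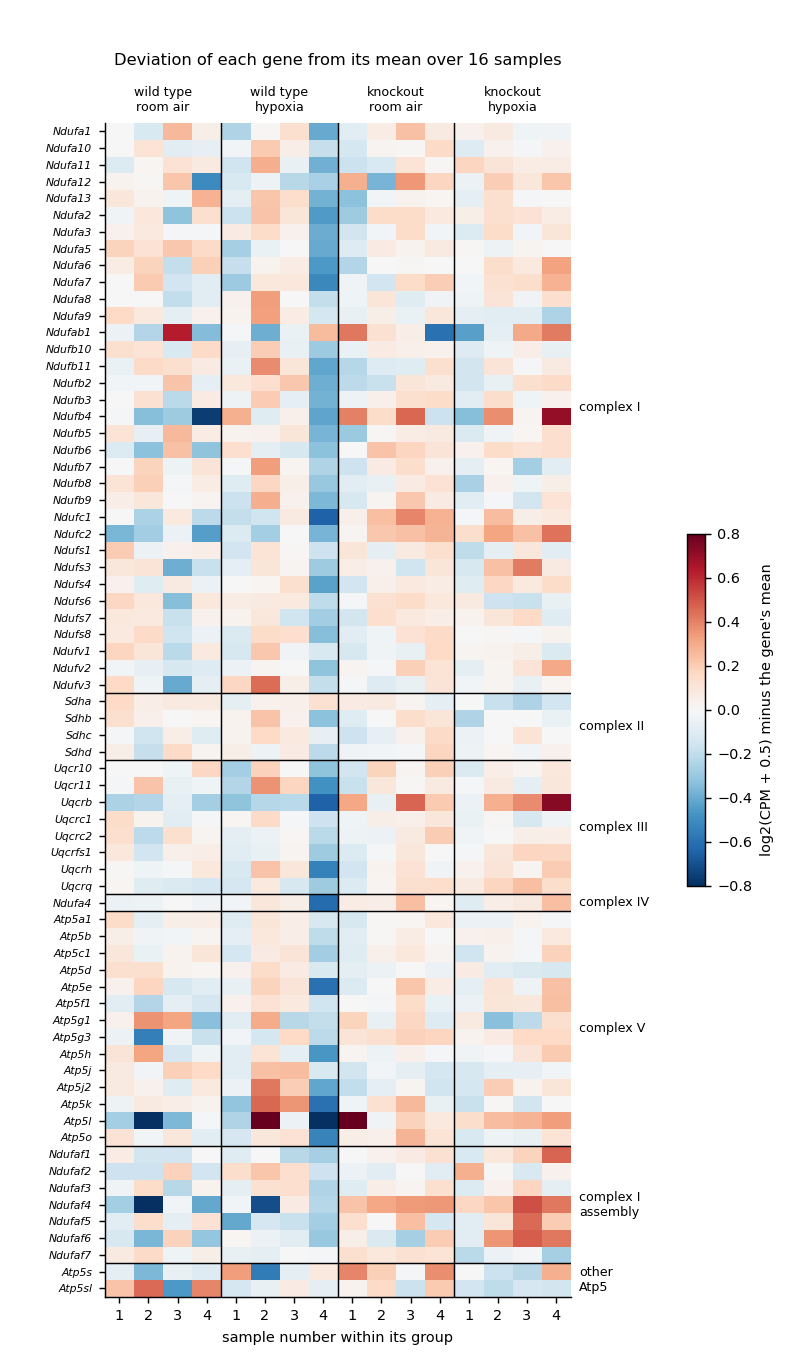
Heat map of log2(CPM + 0.5) minus each gene's mean over the 16 samples, with members (all but 1) in rows by complex and samples in columns by group; values beyond the ends of the colour bar take its end colours. The column of wild type hypoxia 4 is blue for most rows (43 members are lowest there), whereas the rows of Ndufc2, Uqcrb and Ndufaf4 are higher in the knockout columns on the right.

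In wild-type lungs most respiratory chain genes read close to their room-air level after hypoxia. Of 71 members, 1 fell and none rose at an adjusted p under 0.05 (edgeR's quasi-likelihood test, adjusted over all 15766 genes tested), while 4.98% of all genes tested were called (2.67% higher and 2.31% lower). No other member had an unadjusted p under 0.05. The median log2 fold change of the members was -0.05, beside -0.01 over all genes, and 51 of 71 values were negative. For 68 members the 95% interval stayed within 1.5-fold either way, which held for 65.2% of all genes. Such shares, here and below, were not matched for expression level, on which interval width depends. Complex III had negative values for all 8 subunits (median log2 fold change -0.09), with Uqcrb lowest at -0.14, and none of them passed the test. Without wild type hypoxia 4 the signs turned for many members: 46 of 71 values were positive with a median of 0.04, complex III had 4 positive and 4 negative values with a median of -0.005, and no member was called. In bulk lung, fewer cells of a type and less RNA per cell cannot be told apart.

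The gene that fell was Ndufa5, a supernumerary subunit of the arm of complex I that takes up NADH. It lies at chr6:24518666-24528013, and its promoter window with 1 NRF1 match is printed above. In room air the wild-type samples read 28.3, 27.1, 29.1 and 27.8 CPM, and in hypoxia 20.7, 24.1, 25.0 and 18.8 CPM. The 4 hypoxic samples all lay below the 4 in room air, with wild type hypoxia 4 the lowest. The log2 fold change was -0.34 (SE 0.09, 95% interval -0.53 to -0.15, edgeR adjusted p = 0.0321), a drop of 21.1%. In the knockout the room-air samples read 23.3, 26.2, 25.5 and 26.2 CPM and the hypoxic samples 25.2, 24.3, 25.4 and 25.1 CPM. These overlapped throughout (log2 fold change -0.02, 95% interval -0.205 to 0.17). The difference between the effects of hypoxia in knockout and wild type was 0.32 (edgeR adjusted p = 0.253) and did not pass the test. Leaving out any 1 wild-type sample other than hypoxia 2 or 3 ended the call. Without wild type room air 3, Atp5sl was called lower in its place (adjusted p = 0.379 with all samples). Ndufaf5 was the only other member whose hypoxic and room-air samples did not overlap in wild type (2 of 71, or 2.82%, against 8.23% of all genes).

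In the knockout, too, few members differed between hypoxia and room air, beside 2685 calls over all genes. The members called were 0 higher and 1 lower of 71, while 17% of all genes tested were called (7.93% higher and 9.1% lower). The members' median log2 fold change was 0.01 beside 0.00 over all genes, and 67 of 71 intervals stayed within 1.5-fold, against 59.5% of all genes. The gene that fell was Ndufaf7 (chr17:78937136-78948052), which encodes a methyltransferase that acts in the assembly of complex I. Its knockout samples read 22.4, 21.7, 22.3 and 22.1 CPM in room air and 17.6, 19.8, 20.2 and 16.9 CPM in hypoxia, without overlap. The log2 fold change was -0.25 (SE 0.08, 95% interval -0.425 to -0.08, edgeR adjusted p = 0.0405). In wild type its samples read 21.6, 22.8, 20 and 21.1 CPM in room air and 19.6, 19.4, 20.6 and 20.2 CPM in hypoxia, a log2 fold change of -0.10 that did not pass the test. Leaving out any 1 knockout room-air sample ended the call, as did leaving out knockout hypoxia 1 or 4, or samples 1 or 4 (room air) or 1 or 3 (hypoxia) of wild type. Ndufaf7 and Ndufa9, which lay lower without overlap, were among the 3 members (4.23%) whose knockout groups did not overlap, against 24.4% of all genes.

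**Figure D3:**
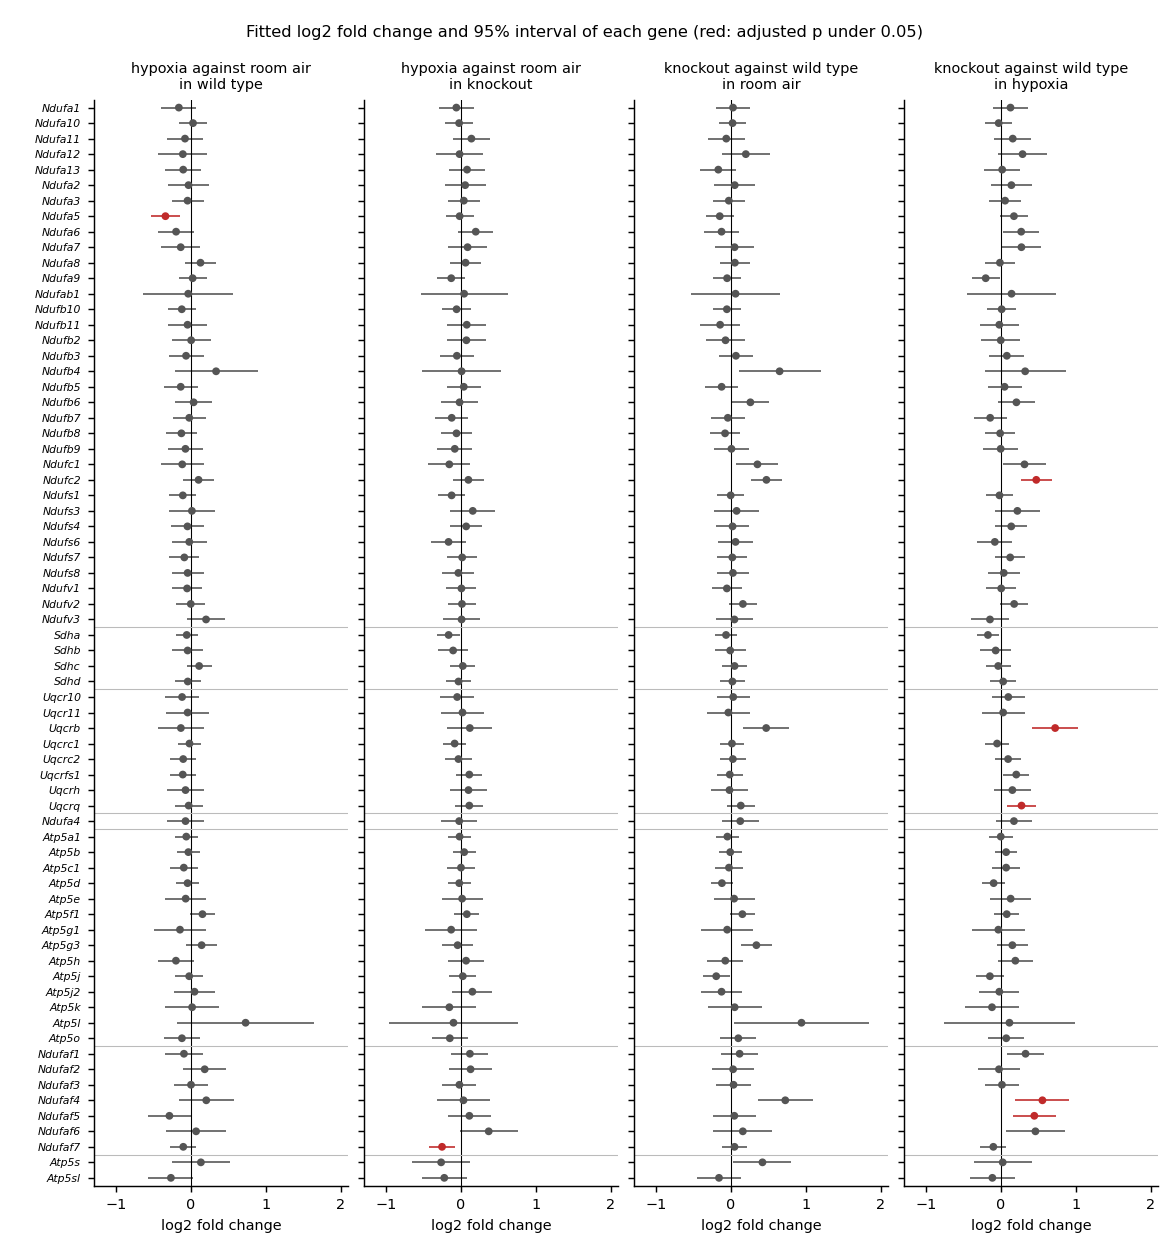
Fitted log2 fold change with its 95% interval for each member but 1 in 4 comparisons, with the called genes in red. Most intervals cross 0 and are narrow; Ndufa5 is called lower in wild-type hypoxia, Ndufaf7 lower in knockout hypoxia, and 5 genes higher in the knockout in hypoxia.

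Between the genotypes, 3 genes read higher in all 8 knockout samples than in any of the 8 wild-type samples: Ndufc2, Uqcrb and Ndufaf4 (4.23% of the members). No member read lower in that way, and 1.45% of all genes did so in either direction. In room air no member passed edgeR's test (0 of 71; 0.0761% of all genes were called, 0.0571% higher and 0.019% lower), and 10 members and 3408 of all genes had an unadjusted p under 0.05. The 4 knockout samples lay above the 4 wild-type samples for 8 members and below them for 2 (14.1% in all), against 10.4% of all genes. DESeq2 called 4 members there: Ndufc2, Ndufaf4, Atp5g3 and Uqcrb, all higher. The median log2 fold change was 0.03, beside -0.02 over all genes. Among refits without 1 sample, this comparison changed most without wild type room air 3, the shallowest sample, summed from 2 libraries. EdgeR then called 5 members higher (Ndufc2, Ndufaf4, Atp5g3, Ndufb6 and Uqcrb) and 2198 of all genes in place of 12. That sample also had the most multiple alignments per gene read, at 12.4. With all samples, DESeq2 called 1095 of all genes here and limma's voom 959. Without wild type hypoxia 2 edgeR called 2 members (Ndufc2 and Ndufaf4) and 296 of all genes. Without wild type hypoxia 4 it called Ndufc2.

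Ndufc2 encodes a small subunit of the membrane arm of complex I and lies at chr7:97400003-97407802. In wild type it read 48.6, 51.6, 60.6 and 46.0 CPM in room air and 58.0, 51.7, 62.9 and 48.4 CPM in hypoxia. In the knockout it read 63.6, 72.7, 73.8 and 75.7 CPM in room air and 69.2, 78.1, 73.8 and 84.8 CPM in hypoxia. The lowest knockout sample thus lay just above the highest wild-type sample. The knockout exceeded wild type by 0.47 on the log2 scale in hypoxia (SE 0.10, 95% interval 0.26 to 0.68, edgeR adjusted p = 0.00358). In room air the log2 fold change was again 0.47 (adjusted p = 0.0569). Its neighbour in the complex, Ndufc1, had log2 fold changes of 0.35 in room air and 0.31 in hypoxia, neither of which passed the test (adjusted p = 0.139 and 0.0973).

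Uqcrb showed the widest gap in complex III. Wild-type samples read 21.6, 21.9, 24.4 and 21.3 CPM in room air and 20.6, 22.0, 22.2 and 16.3 CPM in hypoxia. Knockout samples read 32.2, 24.7, 35.8 and 29.9 CPM in room air and 24.9, 31.6, 33.7 and 43.2 CPM in hypoxia. The knockout values spread more widely than the wild-type values, yet none reached down to them. In hypoxia the log2 fold change was 0.72 (SE 0.15, 95% interval 0.42 to 1.03, edgeR adjusted p = 0.00255), and in room air it was 0.47 (adjusted p = 0.087). Whether reads moved between Uqcrb and the copies printed above was not tested. Uqcrq, another small subunit of complex III (chr11:53427922-53430831), rose less: 25.1, 29.2, 25.2 and 22.6 CPM in wild type and 29.0, 31.2, 32.8 and 30.6 CPM in the knockout, both in hypoxia. Those groups overlapped by 1 sample, wild type hypoxia 2 (log2 fold change 0.27, SE 0.09, edgeR adjusted p = 0.034). Upper quartile scaling and removal of a trend on transcript length each ended this call. In room air its log2 fold change was 0.13 (adjusted p = 0.415).

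Among the 7 Ndufaf assembly factors of complex I, 2 were higher in the knockout in hypoxia. Ndufaf4 (chr4:24898083-24905001), needed to build the peripheral arm, read 13.8, 8.4, 16.4 and 12.4 CPM in wild type in room air and 16.5, 10.0, 17.5 and 14.2 CPM in hypoxia. Its knockout samples read 19.7, 20.9, 21.3 and 21.4 CPM in room air and 18.8, 19.6, 24.2 and 22.6 CPM in hypoxia. The wild-type samples were spread and the knockout samples were close together, with no overlap. The log2 fold change was 0.55 in hypoxia (SE 0.17, edgeR adjusted p = 0.0278) and 0.725 in room air (adjusted p = 0.0643). With each sample's trend on GC content removed, the hypoxic value of Ndufaf4 fell to 0.266 and the call was lost. Ndufaf5 (chr2:140170649-140203689), which hydroxylates the core subunit Ndufs7, read 6.2, 7.6, 7.4 and 6.9 CPM in wild type in hypoxia and 7.9, 9.1, 11.8 and 9.8 CPM in the knockout in hypoxia. These groups did not overlap (log2 fold change 0.445, SE 0.14, edgeR adjusted p = 0.0261). In room air Ndufaf5 showed no such gap, at 8.59 ± 0.766 CPM in wild type and 8.86 ± 1.05 CPM in the knockout (SD, n = 4). Ndufaf1 and Ndufaf6 had log2 fold changes of 0.33 and 0.46 in hypoxia with adjusted p of 0.0545 and 0.081.

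**Figure D4:**
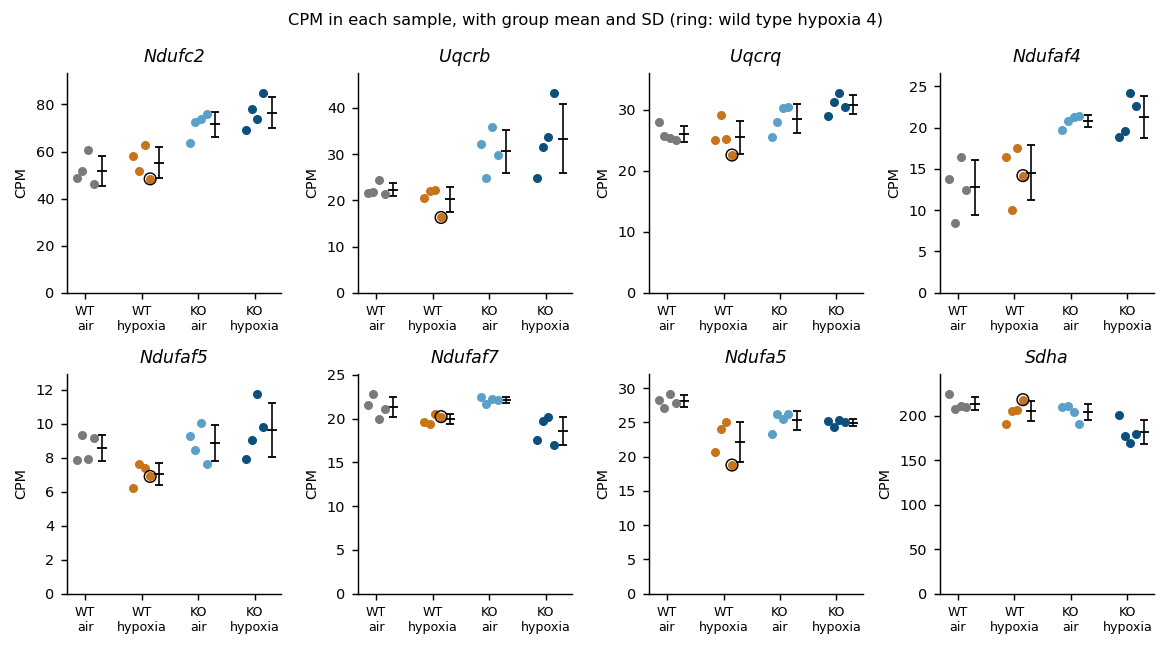
CPM of each sample (points), group mean and SD (n = 4, bars) for 8 genes, with a ring around wild type hypoxia 4; WT is wild type and KO is knockout. Ndufc2, Uqcrb and Ndufaf4 are higher in all 8 knockout samples, Ndufa5 is lower in the hypoxic wild-type samples, and Sdha is lowest on average in the hypoxic knockout samples.

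Counted over all members, the hypoxic genotype comparison called 5 of 71 genes higher and none lower, while 23% of all genes tested were called (11% higher and 12.1% lower). The called share of the members, 7.04%, was below that background. Their median log2 fold change was 0.07, beside -0.01 over all genes, 47 of 71 values were positive, and 61 intervals stayed within 1.5-fold, against 54.4% of all genes. By complex, the medians were 0.08 for complex I, -0.05 for complex II, 0.125 for complex III, 0.07 for complex V and 0.33 for the assembly factors. Without wild type hypoxia 4 they were -0.015, -0.105, 0.04, -0.04 and 0.29 in the same order. Groups that did not overlap were found for 5 members (7.04%), against 25.4% of all genes. Of these, 4 were higher in the knockout (Ndufc2, Uqcrb, Ndufaf4 and Ndufaf5) and 1 was lower (Atp5sl). The median over all members was also -0.015 without that sample, with 34 of 71 values positive, and the calls were then Ndufc2 and Uqcrb higher and Ndufa9 lower. Without wild type hypoxia 1 the calls were 3 (Ndufaf4, Ndufc2 and Uqcrb), and without knockout hypoxia 3 or 4 they were 2 each (Ndufc2 and Uqcrb). The call of Ndufaf4 was also lost without wild type hypoxia 2, and that of Uqcrq without knockout hypoxia 2. Without wild type hypoxia 3 the calls were 9, and without knockout hypoxia 1 they were 8, with Sdha lower among them. Without the 4 samples in which another organ's markers were above 50 CPM and above 5 times the median of all samples, 4 members were called (Ndufc2, Uqcrb, Ndufaf5 and Ndufaf1). In the same comparison 3 of 5 endothelial markers (Pecam1, Cldn5 and Egfl7) were higher and 1 (Cdh5) lower, 2 of 3 erythroid markers tested (Alas2 and Slc4a1) were higher, and 7 of 7 B cell and 3 of 7 T cell markers were lower. Endothelial markers summed to 3797 to 4118 CPM in the hypoxic knockout and 3049 to 3699 CPM in hypoxic wild type, and B cell markers to 23.8 to 40.3 and 49.8 to 96.8 CPM. Erythroid markers summed to 381 to 712 CPM in the hypoxic knockout and 129.8 to 367 CPM in hypoxic wild type, and T cell markers to 26.9 to 36.0 and 38.35 to 49.98 CPM, so none of these 4 sums overlapped. Of the 9 erythroid genes, 4 globins (Hba-a1, Hba-a2, Hbb-bt and Hbb-b2) were at 0 in every sample. The part of this change of cell markers in the members' differences was not tested.

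No member passed the test of whether hypoxia acted differently in the genotypes (0 of 71 by edgeR; 0.501% of all genes were called, 0.279% higher and 0.222% lower). The unadjusted p was under 0.05 for 2 members, Ndufa5 (log2 difference 0.32) and Ndufa6 (0.40, edgeR adjusted p = 0.269), against 2225 of all genes. The members' median difference was 0.05 (-0.04 without wild type hypoxia 4), beside 0.00 over all genes. With both effects of hypoxia in the difference, 58 of 71 intervals stayed within 1.5-fold, against 48.5% of all genes. For Ndufaf5 the difference was 0.40 with a 95% interval from 0.00 to 0.80 (adjusted p = 0.359). For Ndufc2 the difference was 0.00 (95% interval -0.30 to 0.29). The hypoxic calls of Ndufaf5 and Uqcrq therefore do not show a genotype difference limited to hypoxia.

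The catalytic and core members stayed within narrow limits. In complex I, the iron-sulfur subunit Ndufs1 read 88.0 ± 6.44, 81.6 ± 7.53, 87.75 ± 5.27 and 80.6 ± 6.80 CPM (SD, n = 4 each) in wild type in room air, wild type in hypoxia, knockout in room air and knockout in hypoxia. Ndufv1, which binds NADH, read 73.8, 71.4, 71.3 and 71.6 CPM in the same order. None of the 7 core subunits was called in any comparison. In complex III, the core proteins Uqcrc1 (97.8, 96.6, 98.9 and 93.2 CPM) and Uqcrc2 (115.2, 107.1, 117.1 and 114.4 CPM) and the Rieske iron-sulfur protein Uqcrfs1 (56.1, 52.0, 55.45 and 59.9 CPM) were not called either. The closest was Uqcrfs1 between the genotypes in hypoxia, with a log2 fold change of 0.20 and an adjusted p of 0.0764. Ndufa4, first assigned to complex I and now placed in complex IV, read 99.5 ± 1.35, 94.6 ± 19.4, 108.4 ± 7.77 and 106.6 ± 10.2 CPM. The wide hypoxic wild-type spread of Ndufa4 came with a value of 66.05 CPM in wild type hypoxia 4 beside 99.8, 108 and 104.7 CPM in the other 3.

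In complex V no gene was called in any comparison by edgeR. Atp5b read 577 ± 14.5, 563 ± 50.8, 573 ± 24.9 and 590.2 ± 14.8 CPM (SD, n = 4) in the 4 groups in the same order, and Atp5a1, its partner in the head, 506 ± 32.01, 484.5 ± 36.6, 489.8 ± 29.8 and 483 ± 12.2 CPM. Log2 fold changes of Atp5b lay between -0.04 and 0.07 in the comparisons between groups, each with an SE of 0.07. The c ring, which rotates as protons pass, is encoded by several genes for one mature peptide. Atp5g3 read 69.25 ± 10.8, 76.3 ± 8.71, 87.5 ± 2.26 and 84.8 ± 3.97 CPM, and Atp5g1 read 10.9, 9.76, 10.4 and 9.50 CPM. For Atp5g3 the 4 knockout samples in room air lay above the 4 wild-type samples there (log2 fold change 0.34, SE 0.10, edgeR adjusted p = 0.0792). Atp5l, with its 8 copies, had the widest interval: a log2 fold change of 0.73 in wild-type hypoxia with an SE of 0.43.

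Complex II was the one complex whose summed level in hypoxic knockout lungs lay outside the range of all other samples. The 4 subunits summed to 404.6, 397, 393 and 398 CPM there. The other groups summed to 452, 413, 441 and 427 CPM (wild type in room air), 416, 444, 434 and 409 CPM (wild type in hypoxia) and 415, 426, 432 and 433 CPM (knockout in room air). The sum is a description, and none of the 4 genes passed the test in any comparison with all samples and TMM scaling. Markers of heart muscle were also lowest on average in the hypoxic knockout, at 215 to 440 CPM. In the knockout in room air they summed to 480 to 1120 CPM. Wild-type samples summed to 296 to 459 CPM in hypoxia, overlapping the hypoxic knockout, and to 389 to 694.5 CPM in room air. Sample by sample, heart markers and complex II went together in some samples and apart in others. Knockout hypoxia 2, 3 and 4 had the lowest sums of heart markers (233, 219 and 215 CPM) and of complex II. Wild type room air 1 had the highest complex II sum (452 CPM) with 694.5 CPM of heart markers. Knockout room air 3 had the most heart markers (1120 CPM) with a complex II sum of 432 CPM. Wild type hypoxia 3 had 296 CPM of heart markers with a complex II sum of 434 CPM. Of 14 heart markers tested, 7 fell in knockout hypoxia and 1 (Myh7) was lower in the knockout than in wild type in hypoxia. Their part in the complex II sum was not tested. The largest term of the sum was Sdha, the flavoprotein that oxidises succinate. Sdha read 224, 208, 211 and 210 CPM in wild type in room air, 191, 205, 206 and 218 CPM in wild type in hypoxia, 209.6, 210.5, 203.5 and 190.7 CPM in the knockout in room air, and 201, 177, 169 and 179.7 CPM in the knockout in hypoxia. The hypoxic knockout samples overlapped with the others through knockout hypoxia 1. The log2 fold change was -0.17 both against hypoxic wild type (SE 0.07, edgeR adjusted p = 0.0828) and against knockout in room air (adjusted p = 0.123). Under upper quartile scaling Sdha was called lower in the knockout in hypoxia (-0.21), as it was without knockout hypoxia 1 (-0.23). Sdhb read 78.4, 76.05, 77.9 and 72.4 CPM, while the membrane anchors Sdhc (68.5, 73.8, 70.8 and 72.0 CPM) and Sdhd (73.3, 71.1, 74.2 and 72.5 CPM) showed no such drop. Of 16 citric acid cycle genes, 1 was called in any comparison: Fh1, the fumarase that takes the product of complex II, was higher in the knockout in hypoxia by 0.39 on the log2 scale (edgeR adjusted p = 0.00451).

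Complexes I, III and V did not separate the groups as sums. Complex I summed to 1499 to 1624 CPM in wild type in room air, 1257 to 1744 CPM in wild type in hypoxia, 1460 to 1669 CPM in the knockout in room air and 1515 to 1666 CPM in the knockout in hypoxia. Complexes III (398 to 547 CPM) and V (1464 to 1846 CPM) overlapped likewise, with their lowest values in wild type hypoxia 4. Complex IV, here Ndufa4 alone, read 98.3 to 101.4 CPM in wild type in room air and 102.5 to 119.8 CPM in the knockout in room air, without overlap, but the gene did not pass the test (log2 fold change 0.12, edgeR adjusted p = 0.578). The assembly factors summed to 82.2 to 84.8 CPM in wild type in room air and 92.8 to 97.0 CPM in the knockout in room air, without overlap. Ndufaf4 had the largest part in that gap, with means of 3.52 and 5.73 CPM per kb. It was the only assembly factor whose own room-air samples did not overlap between the genotypes. Ndufaf2, Ndufaf3 and Ndufaf5 read 10.1, 12.4 and 7.37 CPM per kb in wild type and 10.2, 12.8 and 7.6 in the knockout. In hypoxia they summed to 77.1 to 88.6 CPM in wild type and 85.9 to 104 CPM in the knockout. All 71 members together took 0.442% of the reads in genes.

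**Figure D5:**
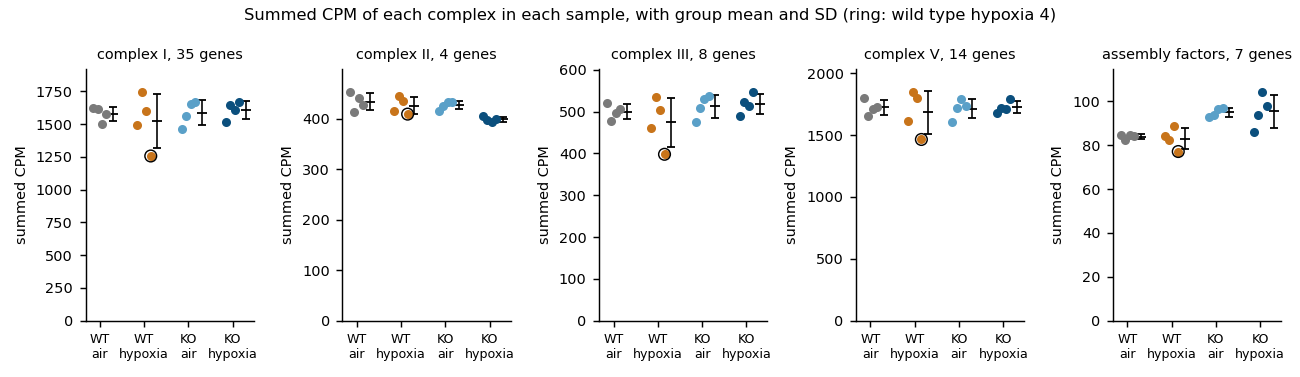
Summed CPM of each complex in each sample (points), with group mean and SD (n = 4, bars) and a ring around wild type hypoxia 4. Complex II sums in hypoxic knockout samples (393 to 405 CPM) are below all others. The assembly factor sums are higher in knockout than in wild type in room air, with Ndufaf4 having the largest part in the gap.

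Genes that work with the members were taken from lists of the same pathway, whose counts stand beside 17% of all genes called in knockout hypoxia and 23% between the genotypes in hypoxia. None of 16 further complex IV subunits was called in any comparison, and Cox4i2, the lung isoform of subunit 4, read 30.7, 30.65, 30.9 and 31.5 CPM in the 4 groups. Cycs, cytochrome c itself, was higher in the knockout in hypoxia (log2 fold change 0.70, edgeR adjusted p = 0.0488), with means of 3.78 and 3.99 CPM in wild type and 7.98 and 6.48 CPM in the knockout, in room air and hypoxia. Of 37 other assembly factors, 36 were high enough to be tested and 3 were higher in the knockout in hypoxia: Sdhaf2, which attaches FAD to Sdha (0.31, adjusted p = 0.00708), Tmem70, an ATP synthase factor (0.35, adjusted p = 0.0275), and Cox11, which delivers copper to complex IV and is named to complete the count after its values were seen (0.40, adjusted p = 0.0372). Nubpl, which loads iron-sulfur clusters into complex I, fell in knockout hypoxia (-0.56, adjusted p = 0.0444). Of 14 genes of mitochondrial biogenesis, Polg, the mitochondrial DNA polymerase, rose in knockout hypoxia (0.30, adjusted p = 0.0458), and Gabpa, whose product binds the GABP letters, was higher in the knockout in hypoxia (0.33, adjusted p = 0.00582). Among 77 genes of the mitochondrial ribosome, 6 were higher and 2 lower in the knockout in hypoxia (10.4%, below the 23% of all genes), with Mrps6 at 0.90 (adjusted p = 0.00179). Carriers and pores (7 genes) and further ATP synthase genes (3 genes) had no call. Without any 1 knockout room-air sample the calls of Cycs, Nubpl and Polg were lost, and over 30 alternatives they were kept in 10, 12 and 16. In room air none of these pathway lists had a gene called between the genotypes.

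Of 12 hypoxia-responsive regulators of respiration, 2 were called in wild-type hypoxia (16.7%, beside 4.98% of all genes), 3 in knockout hypoxia (25%, beside 17%) and 6 between the genotypes in hypoxia (50%, beside 23%). In the last 2 comparisons the calls went both ways, with Ndufa4l2 higher and Pdk1 lower in each. Ndufa4l2, the relative of Ndufa4 left out of the members, read 16.5, 14.8, 11.8 and 17.4 CPM in wild type in room air and 18.5, 20.4, 23.1 and 20.6 CPM in hypoxia. In the knockout it read 16.2, 17.9, 17.1 and 19.7 CPM in room air and 30.7, 27.3, 26.9 and 26.3 CPM in hypoxia. Hypoxic samples lay above room-air samples of their genotype without overlap. It rose with hypoxia by 0.43 in wild type (edgeR adjusted p = 0.0276) and by 0.65 in the knockout (adjusted p = 0.000405) on the log2 scale, and the difference of 0.22 did not pass the test (adjusted p = 0.582). Without wild-type samples 2 or 3, of either oxygen level, the wild-type call was lost. Ndufa4l2 was also called higher in the knockout than in wild type in hypoxia. Over 30 refits the log2 fold change of that comparison ran from 0.35 to 0.55, and 27 kept the call. Ndufa4 itself had log2 fold changes with hypoxia of -0.07 in wild type and -0.02 in the knockout. Bnip3, which marks mitochondria for removal, rose in wild-type hypoxia by 1.08 (adjusted p = 0.00412). In knockout hypoxia it was not called in the main fit, but was with the compared groups alone (0.419). Between the genotypes in room air the main fit did not call it. DESeq2 (0.639) and limma's voom (0.846) called it higher in the knockout there. Its difference between the effects of hypoxia was called without wild type room air 3 (-0.934), though not in the main fit. Pdk1 fell in knockout hypoxia and was lower in the knockout than in wild type in hypoxia (log2 fold change -0.62, adjusted p = 0.000163).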

How the data were processed

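The authors deposited 1 raw count per gene and library, made with Trim Galore, TopHat2 and HTSeq on mm10, per the submitters' processing notes. The sources used here give no versions, annotation or strand setting, so reads of antisense overlaps (19 members) cannot be told apart. Lines naming no gene (5) were left out. A and B libraries of 1 number were summed (4 pairs; the letters' meaning is not given), which left 16 samples of 20 libraries. Counts were tested with edgeR 4.0.16 (R 4.3.3): TMM scaling, a minimum count of 10 (15766 genes tested), 4 groups in 1 robust quasi-likelihood fit, two-sided, with Benjamini-Hochberg adjustment over all genes tested and calls at an adjusted p under 0.05. CPM used the same scaling, and 3 reads equal 0.0474 to 0.315 CPM (counting error only). Positions and coding sequences came from GENCODE release 21 (GRCm38, the assembly of mm10) and copies from BLAST+ 2.17.0. The fit was tested on simulated data. Members, roles, lists and tests were chosen with earlier results of these data known. Named genes were the called members with the smallest p in each complex (up to 4 each way), fixed catalytic members and isoforms, Arg2, and up to 2 called genes each way per list; other members were named for a place in an order or a count. Of the genes this rule names, 2 are not reported here, and the member among them is counted but not plotted. Alternatives covered scaling, filters, DESeq2, limma's voom, GC and length trends, a replicate block, library choice and sample choice.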

Additional observations from a re-analysis of the deposited data

Results flagged for a closer look

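Within groups of 4 samples, 124 groups of values (named genes and sums) were examined for a single sample whose gap to the nearest other was too large a part of the group's range by the 95% critical value of Dixon's test, and 2 were found (1.61%). Chance alone finds about 1 in 20. Ndufv1, the NADH-binding subunit of complex I, read 66.1 CPM in knockout hypoxia 4, below 72.9 to 74.0 CPM in the other 3 samples of its group. Sdhd, a membrane anchor of complex II, read 81.9 CPM in knockout room air 4, above 71.3 to 72.2 CPM in the other 3.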

How the results depend on the processing

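Over 32 alternatives, 2 of them chosen after seeing the data (leaving out the 4 samples with another organ's markers over 50 CPM and over 5 times the median of all samples, and leaving out both wild type hypoxia 4 and the shallow wild type room air 3), no called member changed sign. Uqcrb was called higher in the knockout in hypoxia in 30 of 30 refits (the other alternatives only drop genes from the count) and Ndufc2 in 29, but Ndufaf5 in 24, Ndufaf4 in 23, Uqcrq in 19, Ndufa5 (wild-type hypoxia) in 19 and Ndufaf7 (knockout hypoxia) in 14. The cause of lost calls was not tested, except that the setting without assembly factors counts fewer members by construction. Leaving out samples lowered the calls in some settings and raised them in others. In wild-type hypoxia the 1 call became 0 with the compared groups alone, with B libraries only, without samples carrying other organs' markers, and without the samples over 50 CPM of such markers. In knockout hypoxia the 1 call became 0 with no filter on low counts, with A or B libraries only, without the same samples under either rule, and without assembly factors. Between the genotypes in room air, 0 calls became 1 under upper quartile scaling, 1 with the length trend removed, 2 with A or B libraries only, 4 with DESeq2, 4 with limma's voom, and 6 without the pair of samples named above. In hypoxia the 5 calls became 3 with B libraries only, 3 without assembly factors, and 1 without samples carrying other organs' markers, which left 1 hypoxic knockout sample, assumed to vary like the other groups. Medians moved beyond the replicate spread of 0.069 as follows: wild-type hypoxia from -0.046 to 0.028 and hypoxic genotype from 0.069 to -0.015 without that pair, and knockout hypoxia from 0.008 to 0.082 without the organ-marker samples. Leaving out 1 sample at a time gave 0 to 1 calls in wild-type hypoxia, 0 to 1 in knockout hypoxia, 0 to 5 between genotypes in room air and 2 to 9 in hypoxia, and 0 for the difference of effects. Medians then ran from -0.114 to 0.036, -0.035 to 0.033, -0.006 to 0.046, -0.015 to 0.119 and -0.037 to 0.114 in the same order. Over all genes, calls ranged from 400 to 1215 in wild-type hypoxia (785 in the main analysis), 434 to 3424 in knockout hypoxia (2685), 0 to 2524 in room air (12), 274 to 4337 in hypoxia (3633), and 9 to 495 for the difference (79).

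Samples of different groups share replicate numbers. Correlations of same-numbered deviations ran from -0.327 to 0.46, and in no comparison were all 4 above 0.1, so the numbers were not taken as pairs. Between the genotypes in room air all 4 were positive (0.277, 0.093, 0.329 and 0.183), and in the other comparisons the signs were mixed. With the replicate block the calls were 0 in knockout hypoxia and 2 between genotypes in room air (Ndufc2 and Ndufaf4), while counts in the other comparisons stayed at 1, 5 and 0. Over all genes, 238 were then called between the genotypes in room air in place of 12, so calls there depend on this choice. At 9531270 reads in genes, wild type room air 3 limits the precision of low genes most.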
